A study of Mus musculus with 48 samples.

Results

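Nuclear RNA of mouse liver at the end of the night was compared between Nono-/- and wild-type mice in 6 of the 48 libraries of the series. They were chosen by their labels, as the nuclear RNA libraries of both genotypes at zeitgeber times ZT20, ZT22 and ZT0, and matched by time into 3 pairs. Zeitgeber time counts the hours from lights on, so ZT20 and ZT22 fall late in the dark phase and ZT0 at its end. The C57BL/6 mice of both genotypes were 14 weeks old. They were kept under a 12 h:12 h light cycle and, for a week before collection, could eat in the dark phase alone. Each liver sample pooled 2 mice, and each genotype had 1 pool at each time. The labels give the mutant genotype as nono-/- and describe no construct. Nuclei were isolated from homogenized liver, so they came from every cell type of the organ.

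Nono belongs, with Sfpq and Pspc1, to the DBHS family of nuclear proteins, which bind RNA and DNA and gather in paraspeckles, bodies built on the long noncoding RNA Neat1. Members of the family take part in transcription, splicing and the retention of RNA in the nucleus, and Nono also binds clock proteins of the Period family. Liver nuclei hold RNA that still carries introns. Intron signal therefore follows unspliced transcripts, and exon signal of the same nuclei adds spliced RNA that has not left. Late night is the end of the feeding phase, when the liver has been building fat, glycogen and cholesterol from food.

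Values are FPKM (fragments counted on a gene's introns or exons, set relative to their length and to the depth of the library), divided by a scale factor for each library that sets the median gene equal. They are called scaled FPKM and given in the order ZT20, ZT22, ZT0. A difference is the log2 value in Nono-/- minus that in wild type with its standard error (SE), from a limma model that held all 24 nuclear libraries with each time as a block and a genotype term for each of 4 windows of 3 times. A gene rose or fell only where its Benjamini-Hochberg adjusted p over all genes of the table was below 0.05. Other differences are given as values.

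The libraries were 14.7 to 18.9 M reads deep in wild type and 18.2 to 25.5 M in Nono-/-. The exon share of reads was 20.4%, 22.7% and 16% in the wild-type libraries and 18.1%, 15.8% and 17.1% in those of Nono-/-, so the wild-type libraries of ZT20 and ZT22 stood above the other 4. The means, 19.7% ± 3.37 (SD, n = 3) and 17% ± 1.13, gave p = 0.30 in a 2-sided exact permutation test, which cannot go below 0.10 with 3 against 3 libraries. The share of exon reads on the top 10 genes was 15.1 to 16.5% in wild type and 17.5 to 19.4% in Nono-/-, so these groups did not overlap (exact permutation p = 0.10, the smallest possible, and 0.36 adjusted over 6 such measures). The same 2 wild-type libraries had exon scale factors of 1.27 and 1.48, against 0.919 to 1.11 in the other 4. Without scaling the median gene was shifted by -0.27 (log2) in exons and by -0.01 in introns, so exon differences are relative to the median gene. Defining hepatocyte markers were present in every library, with a summed exon level of 2272 to 2546 scaled FPKM in wild type and 2121 to 2692 in Nono-/-. Of 12 exocrine pancreas genes, a list added after the values were seen, 9 reached the exon filter and 9 of those 9 were lower in Nono-/- at 3 of 3 times, against 18.5% of all exons tested. Their summed level was 31.2, 8.58 and 12.4 scaled FPKM in wild type and 8.82, 3.84 and 1.48 in Nono-/-, so wild-type ZT20 held the most. In a limma fit with the exon share as covariate, 13 of 90 gene values followed moved by over 1.5-fold, and those of genes described below are given with them. The part of the pancreas genes in the other values was not tested.

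Nono itself was read first. Its exon signal was 2.15, 1.81 and 2.06 scaled FPKM in wild type and 0.0144, 0 and 0 in Nono-/-, so each of the 6 libraries matched its labelled genotype. It fell by 4.33 ± 0.23 (log2 ± SE, limma adjusted p = 4.61e-06). Intron signal of Nono remained, at 1.20, 1.44 and 1.51 scaled FPKM in wild type and 0.387, 0.357 and 0.492 in Nono-/-. The groups did not overlap, and the introns fell by 1.63 ± 0.13 (limma adjusted p = 0.000319), or 3.10-fold. Nono introns thus kept a share of their signal in nuclei where its exons were at or near 0.

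Introns, the first of the tables compared, were tested in 11997 genes, and 1 rose (0.00834%) while 2 fell (0.0167%). The genes that fell were Nono and Itgb1bp2, which encodes melusin, a chaperone-like protein of muscle. Itgb1bp2 lies from 101449109 to 101453541 on the plus strand of chromosome X (mm10) and begins after a gap of 515 bases from the annotated end of Nono at 101448593, on the same strand. Its introns had 1.16, 0.838 and 1.18 scaled FPKM in wild type and 0 in all 3 Nono-/- libraries. Against a limit of 3 reads over the Nono-/- group this was at least 77.0-fold lower (limma adjusted p = 5.44e-08). Its exons had 0.929, 0.758 and 1.41 scaled FPKM in wild type and again 0 in all 3 Nono-/- libraries, at least 36.0-fold lower by the same limit (limma adjusted p = 0.00208). En2 rose. It encodes a homeobox transcription factor of the developing brain, and its splice acceptor is a common element of gene-trap vectors. The gene lies from 28165696 to 28172166 on chromosome 5. Its introns were at 0 in all 3 wild-type libraries and at 0.519, 0.247 and 0.548 scaled FPKM in Nono-/-, at least 21.9-fold higher (limma adjusted p = 0.000319). The counts behind En2 were 18 to 41 reads a library, and whether they came from the En2 locus was not tested.

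**Figure D1:**
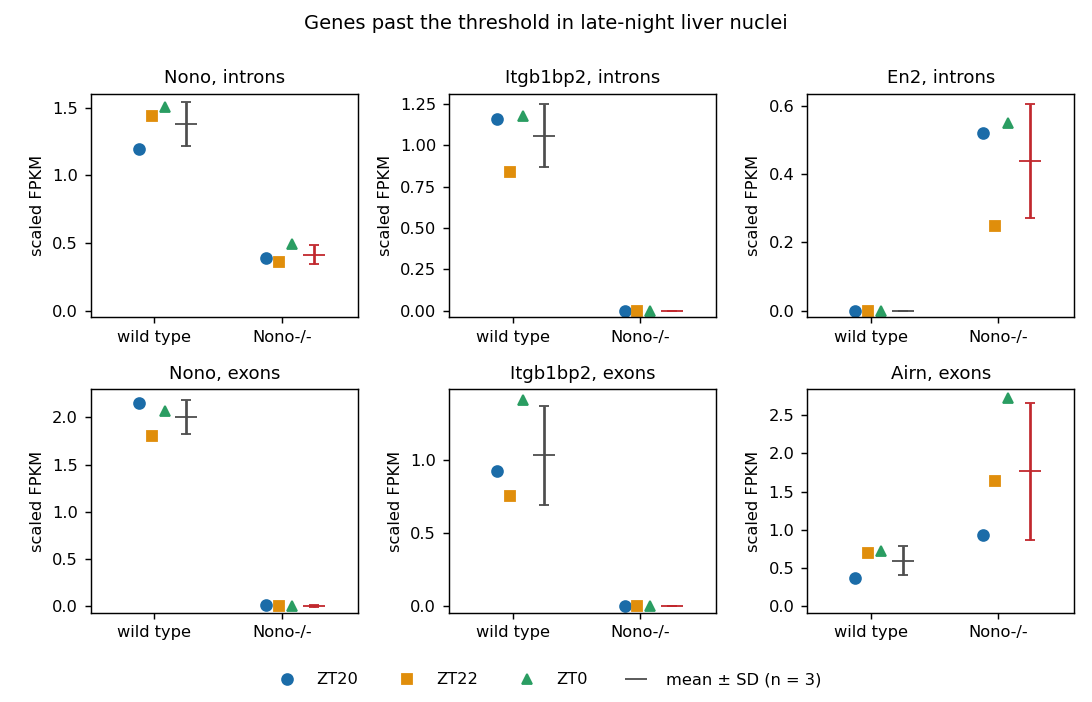
Scaled FPKM (vertical axes, each with its own scale) of the genes past the threshold in introns (upper row) and exons (lower row) in the 3 wild-type and 3 Nono-/- libraries. Points are single libraries by time, and bars give the mean and SD (n = 3). Wild type and Nono-/- do not overlap in any of the 6 panels, and Itgb1bp2 lies at 0 in every Nono-/- library.

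No other intron difference passed the threshold, and 1086 of the 11997 genes had an unadjusted limma p below 0.05, 406 higher and 680 lower in Nono-/-. Among list members Hpx came close to the threshold, the heme-binding plasma protein hemopexin, with introns at 8.84, 8.97 and 17.4 scaled FPKM in wild type and 23.3, 21.4 and 38.9 in Nono-/-. All 3 Nono-/- libraries lay above all 3 of wild type, with a difference of 1.27 ± 0.19 (limma adjusted p = 0.0956). The exons of Hpx did not follow, with 67.9, 78.4 and 95.6 against 103, 68.8 and 96.3 scaled FPKM.

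The 3 late-night pairs were not alike. Across the 11997 genes the intron differences at ZT20 and ZT22 correlated at r = 0.46, those at ZT20 and ZT0 at 0.06 and those at ZT22 and ZT0 at -0.06. In exons the values were 0.54, 0.08 and 0.03 over 10405 genes. These are correlations across genes, which are not independent replicates, and genes that share length or library effects move together in them. The intron differences also followed intron length in a way that changed with time. At ZT22 the median difference was -0.40 in the first of 4 equal groups of genes, with the shortest introns, and 0.23 in the last, with the longest, at ZT20 the medians were -0.13 and 0.02, and at ZT0 they were 0.09 and -0.02. Over the other 9 times they were -0.12 and 0.04. Long-intron genes were thus relatively higher in Nono-/- nuclei at ZT22 and not at ZT0. Genes higher at 3 of 3 times made up 9.77% of the first group and 23.1% of the last, and those lower 21.7% and 7.94%.

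**Figure D2:**
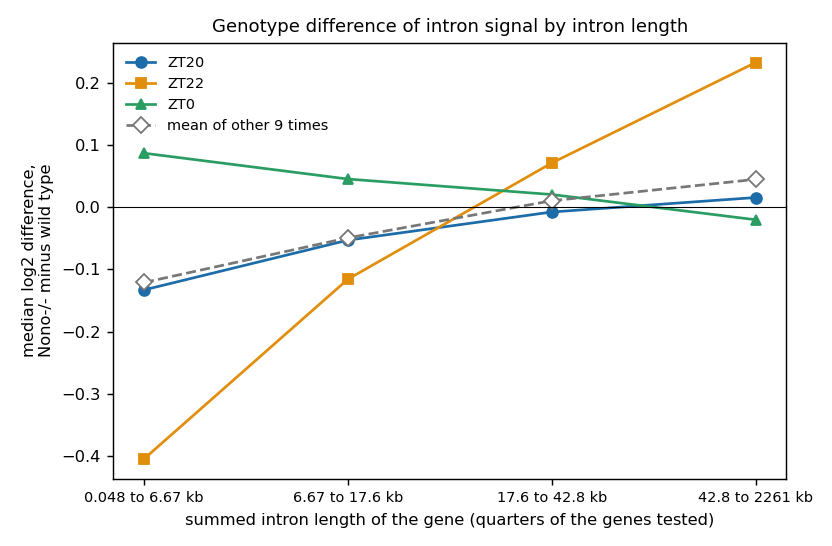
Median log2 difference of intron signal, Nono-/- minus wild type (vertical axis), in 4 equal groups of the tested genes by summed intron length (horizontal axis), for each late-night pair and for the mean of the other 9 times. The line of ZT22 runs from -0.40 to 0.23, and that of ZT0 runs the other way, from 0.09 to -0.02.

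Because almost no gene passed alone, gene lists are described by counts and medians of the introns, beside the same for all genes tested. Among the 11997 genes, those above wild type at 3 of 3 times made up 17.4% and those below it 15.9%. With a difference of at least 1.5-fold as well, the shares were 1.28% and 2.79%. All 3 Nono-/- libraries lay above all of wild type in 7.33% and below them in 6.95%. The median difference was -0.00. No member of any list other than Nono passed the threshold in introns.

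Genes of cholesterol synthesis and uptake had one of the highest medians. The 22 tested members, which make cholesterol from acetyl-CoA or take it up from blood under control of SREBP2, had a median difference of 0.31, against -0.00 at the other 9 times. Of them 10 were higher and 1 lower at 3 of 3 times, and 5 were higher by at least 1.5-fold. By time the medians were 0.33, -0.12 and 0.36, so ZT22 went the other way, and without the ZT22 pair the median was 0.41. Idi1, the isopentenyl diphosphate isomerase, had introns at 2.54, 3.78 and 2.14 scaled FPKM in wild type and 10.1, 6.29 and 3.15 in Nono-/-. Its difference of 1.08 ± 0.41 did not pass (limma adjusted p = 0.505). Stard4, a carrier of cholesterol between membranes, had 3.61, 4.04 and 2.54 scaled FPKM against 6.38, 5.6 and 4.47, and Pmvk, the phosphomevalonate kinase, had 1.69, 1.52 and 0.926 against 2.69, 2.21 and 1.5. Both were higher in Nono-/- at each time, although the groups of Pmvk overlapped. Insig1, which holds SREBP in the endoplasmic reticulum, had exons at 28.3, 39.7 and 26.2 scaled FPKM in wild type and 48.9, 52.5 and 37.3 in Nono-/-, a difference of 0.57 ± 0.17 (limma adjusted p = 0.258). In values as deposited the exon difference of Insig1 was 0.28 ± 0.19. Its introns were at 33.2, 56.4 and 25.7 scaled FPKM against 52.9, 46.3 and 37, so wild type was higher at ZT22, and the difference was 0.31 ± 0.21 (limma adjusted p = 0.617). In exons the median of the cholesterol genes was 0.06 over 21 tested, so the higher median was one of introns. Of the 21, 9 were higher and 3 lower at 3 of 3 times, against 22.6% and 18.5% of all exons tested.

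The promoters of Idi1 and Insig1 are shown because genes of the cholesterol list share a box there, and that of Per1, described with the clock genes, because it holds boxes of 3 kinds. Over the 250 bases before each RefSeq start (GRCm38.p6), 14 of the 22 cholesterol genes matched the promoter table. All 14 of those held CCAAT on either strand, the box bound by NF-Y, against 37.5% of the 27025 genes of the table and 40.1% of those with tested introns. CCAAT was also in 10 of 15 matched core clock genes. The E-box CACGTG, read by clock activators, was in 4 of the 14 cholesterol genes and in 4 of the 15 clock genes. It was in 6.86% of the genes of the table and in 9.90% of those with tested introns. The sterol response element, written as TCACNCCAC, was in 1 of the 14 cholesterol genes, in 1.22% of the table and in 1.34% of genes with tested introns. Capitals mark CCAAT (on the other strand ATTGG), the E-box and the D-box TTATGNAA. The stretches are chr13:8885356-8885605 for Idi1, chr5:28071162-28071411 for Insig1 and chr11:69098699-69098948 for the first start of Per1, each on the plus strand and written 5′ to 3′. A match is a run of letters and not a tested binding site.
Idi1: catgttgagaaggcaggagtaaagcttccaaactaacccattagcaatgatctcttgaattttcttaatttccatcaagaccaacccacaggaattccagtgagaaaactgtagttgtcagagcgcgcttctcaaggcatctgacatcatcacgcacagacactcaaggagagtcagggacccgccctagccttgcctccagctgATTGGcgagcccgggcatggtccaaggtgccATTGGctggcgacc
Insig1: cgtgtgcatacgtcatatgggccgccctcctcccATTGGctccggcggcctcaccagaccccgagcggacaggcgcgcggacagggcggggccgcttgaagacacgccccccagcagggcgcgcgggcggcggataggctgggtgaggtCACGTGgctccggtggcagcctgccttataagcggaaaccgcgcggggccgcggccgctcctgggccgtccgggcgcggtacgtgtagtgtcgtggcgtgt
Per1: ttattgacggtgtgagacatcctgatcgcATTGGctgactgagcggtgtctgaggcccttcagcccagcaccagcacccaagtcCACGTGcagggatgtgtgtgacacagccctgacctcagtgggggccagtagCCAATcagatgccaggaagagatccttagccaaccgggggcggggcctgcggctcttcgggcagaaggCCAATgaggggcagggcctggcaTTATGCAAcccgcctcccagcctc

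Ribosome biogenesis genes, which make and process ribosomal RNA in the nucleolus, also had a median above 0 in introns. Their 20 tested members had a median intron difference of 0.22, against -0.16 at the other 9 times, with 12 higher and 2 lower at 3 of 3 times. None was higher by at least 1.5-fold at every time. In 9 of the 20 all Nono-/- libraries lay above all of wild type, and in 2 below. The medians at the 3 times were 0.23, 0.20 and 0.13, and without the ZT22 pair the median was 0.21. Ncl, nucleolin, had introns at 1.35, 1.18 and 1.38 scaled FPKM in wild type and 2.06, 2.06 and 1.55 in Nono-/- (difference 0.51 ± 0.16, limma adjusted p = 0.482). Dkc1, the pseudouridine synthase of box H/ACA particles, had 0.376, 0.439 and 0.394 against 0.575, 0.547 and 0.429 scaled FPKM. Wdr12 exons were at 1.38, 1.15 and 1.94 against 2.25, 2.75 and 2.18 scaled FPKM. The groups did not overlap for Ncl introns or Wdr12 exons, and those of Dkc1 did, since Nono-/- at ZT0 lay below wild type at ZT22. None of the 3 passed. With the exon share as covariate the intron differences were 0.24 ± 0.13 for Ncl and 0.26 ± 0.14 for Dkc1, against 0.51 and 0.32 without it. That of Wdr12 exons was 0.40 ± 0.19, against 0.67.

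**Figure D3:**
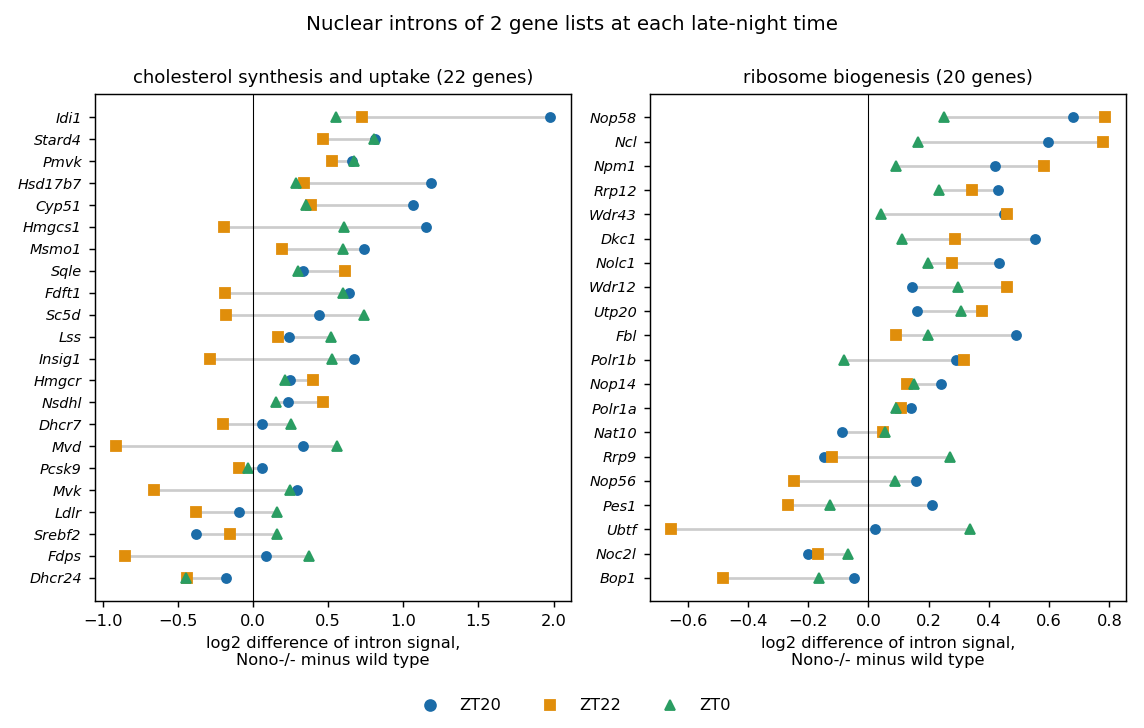
Log2 difference of intron signal, Nono-/- minus wild type (horizontal axis), of the 22 cholesterol genes and the 20 ribosome biogenesis genes tested, with 1 point for each late-night time. Idi1, Stard4 and Pmvk lie above 0 at all 3 times, and several cholesterol genes lie below 0 at ZT22 alone.

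Targets of growth hormone and genes that differ between the sexes had a median of 0.40 in introns, against 0.07 at the other 9 times, over 17 genes. The medians at the 3 times were 0.11, 0.09 and 0.25, all below 0.40, and without the ZT22 pair the median was 0.19. In exons the list had a median of 0.05 over 17 genes. The pattern was uneven, with 5 higher and 1 lower at 3 of 3 times. Cyp4a12b, a male-biased enzyme that hydroxylates fatty acids, had introns at 0.987, 0.230 and 0.712 scaled FPKM in wild type and 3.02, 2.67 and 2.12 in Nono-/-. Its groups did not overlap, and the difference was 2.12 ± 0.52 (limma adjusted p = 0.466), or 1.16 ± 0.38 with the exon share as covariate. Mup21, a major urinary protein, went the other way, with exons at 13.4, 8.84 and 7.84 in wild type and 2.69, 2.90 and 3.83 in Nono-/-. That difference was -1.62 ± 0.28 (limma adjusted p = 0.118) in nuclear exons. In total RNA of the same livers Mup21 fell by 1.18 ± 0.24 (limma adjusted p = 0.0313), from 148, 114 and 131 to 42.7, 51.2 and 87.7 scaled FPKM. Both genes belong to families with several copies, so their reads may be shared with relatives, which was not tested.

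Glucocorticoid targets, 16 tested, had a median intron difference of -0.47, against -0.34 at the other 9 times and -0.46 without the ZT22 pair. Of them 6 were lower and 2 higher at 3 of 3 times, and 4 were lower by at least 1.5-fold. Cdkn1a, the cell cycle inhibitor p21, had introns at 1.94, 0.397 and 1.17 scaled FPKM in wild type and 0.420, 0.183 and 0.429 in Nono-/- (difference -1.46 ± 0.39, limma adjusted p = 0.482). Wild type was higher at each time, but its ZT22 library lay below 2 of the Nono-/- libraries. Sgk1, a kinase of salt and insulin signalling, had 1.44, 1.44 and 3.68 against 1.16, 1.16 and 1.10 scaled FPKM, with the gap mostly at ZT0. Zbtb16 exons were at 8.42, 0.796 and 1.67 against 1.69, 0.423 and 1.45 scaled FPKM, with the gap mostly at ZT20.

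Per1, a clock repressor that glucocorticoids also induce, shared that form. Its introns were at 1.59, 0.267 and 1.71 scaled FPKM in wild type and 0.845, 0.242 and 0.772 in Nono-/-, a difference of -0.70 ± 0.31 (limma adjusted p = 0.542). Its exons were at 3.42, 0.610 and 1.90 against 0.970, 0.516 and 0.894 scaled FPKM (difference -0.98 ± 0.31, limma adjusted p = 0.264). At ZT22, when wild type was at its lowest, the genotypes were close. Over the other 9 times Per1 exons fell by 1.32 ± 0.18 (limma adjusted p = 0.00359). The core clock list had a median intron difference of -0.06 over 18 genes, 1 higher and 3 lower at 3 of 3 times, and of -0.24 without the ZT22 pair. Npas2, a partner of Bmal1, had exons at 1.42, 2.01 and 2.27 in wild type against 0.551, 1.20 and 1.6 scaled FPKM, and Dbp, a PAR bZIP output factor, had introns at 0.924, 1.05 and 0.570 against 0.668, 0.540 and 0.491.

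SnoRNA host genes, whose introns hold small nucleolar RNAs and whose spliced exons are mostly noncoding, had a median below 0 in introns and above 0 in scaled exons. In introns their 11 tested members had a median of -0.47, with 6 lower and 1 higher at 3 of 3 times. By time it was -0.21, -0.61 and -0.02, and without the ZT22 pair -0.18, so it was lowest at ZT22. In exons the 12 tested members had a median of 0.32, with 6 higher and 2 lower at 3 of 3 times, beside 22.6% and 18.5% of all exons. The exon median was 0.17 without the ZT22 pair and 0.03 in values as deposited, where that of all exons was -0.27. Of the 12, 5 stood above wild type and 1 below without overlap, as did 10.8% and 9.82% of all exons. Snhg9 introns were at 30.9, 36.1 and 6.37 scaled FPKM in wild type and 5.17, 2.72 and 2.43 in Nono-/- (difference -2.55 ± 0.55, limma adjusted p = 0.466), a difference of -1.44 ± 0.33 with the exon share as covariate. Snhg12 introns were at 13.3, 13.7 and 11.1 against 10.4, 8.06 and 8.46, while its exons were at 4.75, 5.30 and 5.14 against 7.04, 8.37 and 5.59 scaled FPKM. Its groups of scaled values did not overlap in either table, and they stood on opposite sides. The exon difference of Snhg12 was 0.44, but 0.16 ± 0.16 in values as deposited and 0.13 ± 0.20 with the exon share as covariate. With that covariate its intron difference went from -0.50 to -0.26 ± 0.15. Intron signal of these genes can include the mature snoRNA, since the counting took whole introns, and what share it made up was not tested. In both genes the highest intron values came from wild type at ZT20 and ZT22, which are the libraries with the highest exon share of reads.

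Immediate early genes, which respond to signals within minutes, were followed because several passed the threshold at other times of day. Their 11 tested members had a median intron difference of -0.00 late at night, or 0.23 without the ZT22 pair. At the other 9 times the median was 0.61. There 5 of the 11 passed the threshold upward and 0 downward, against 9.98% and 11.2% of all genes tested. Dusp1, a phosphatase of MAP kinases, had late-night introns at 9.38, 5.13 and 7.17 scaled FPKM in wild type and 9.11, 3.56 and 10.2 in Nono-/-. Its difference was -0.02 ± 0.42 in this window, and 1.21 ± 0.24 at the other 9 times, where it rose (limma adjusted p = 0.00875). The test of the gap itself did not pass, at -1.23 ± 0.48 (limma adjusted p = 0.826). Nr4a1 had a difference of 0.28 ± 0.41 late at night and 1.47 ± 0.24 at the other times, and Fos had -0.10 ± 0.44 and 1.02 ± 0.25. Both were low in this window, with no library above 0.254 scaled FPKM for Nr4a1 or 0.175 for Fos. Gadd45g, a stress sensor, differed downward, with introns at 1.44, 0.261 and 1.56 against 0.259, 0.0565 and 0.927 scaled FPKM (difference -1.51 ± 0.36, limma adjusted p = 0.466). Atf3 went upward, with 0.109, 0.159 and 0.173 against 0.436, 0.269 and 0.300, and its groups did not overlap.

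**Figure D4:**
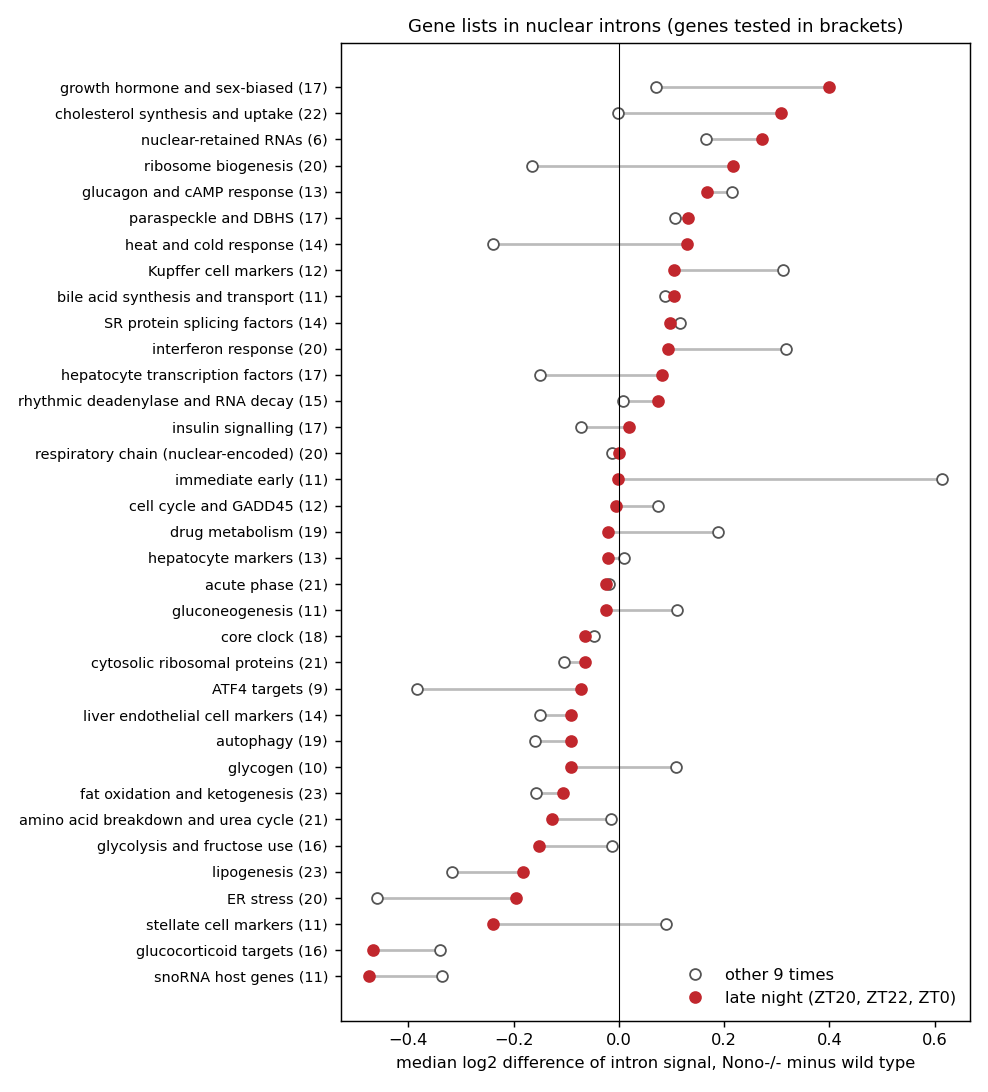
Median log2 difference of intron signal, Nono-/- minus wild type (horizontal axis), for each gene list with at least 5 tested genes other than the exocrine pancreas genes, late at night (filled) and over the other 9 times (open), with the number of genes in brackets. Cholesterol synthesis and ribosome biogenesis stand at 0.31 and 0.22 late at night, and immediate early genes stand at -0.00 against 0.61.

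Genes of fat synthesis and of sugar use had list medians below 0. Of 23 lipogenesis genes, 5 were lower and 1 higher in introns at 3 of 3 times (median -0.18). Among all introns tested these shares were 15.9% and 17.4%. In exons 6 of the 23 were lower and 0 higher at 3 of 3 times (median -0.40). Of these exons 5 were lower by at least 1.5-fold, as were 6.8% of all. Among all exons tested 18.5% were lower and 22.6% higher at 3 of 3 times. Lpin1, a phosphatidate phosphatase of triglyceride synthesis, had introns at 9.23, 0.820 and 4.68 scaled FPKM in wild type and 1.35, 0.744 and 1.55 in Nono-/-. Its difference was -1.48 ± 0.58 (limma adjusted p = 0.513), or -2.07 ± 0.66 with the exon share as covariate, and at ZT22, where wild type was low, the libraries were close. Dgat2, which adds the last fatty acid to triglyceride, had exons at 15.2, 11.1 and 7.67 against 7.95, 5.42 and 6.34 scaled FPKM. Glycolysis and fructose genes had an exon median of -0.51, with 7 of 14 lower and 0 higher at 3 of 3 times, and an intron median of -0.15. By time the exon medians were -0.54, -0.89 and 0.02, and without the ZT22 pair the median was -0.27, so the lower medians were those of ZT20 and ZT22. The intron median without that pair was -0.05. Pklr, the liver pyruvate kinase, had exons at 10.8, 5.55 and 5.21 against 5.25, 3.08 and 4.45 scaled FPKM (difference -0.69 ± 0.17, limma adjusted p = 0.227). Khk, ketohexokinase, had exons at 19.1, 14.1 and 6.42 against 5.86, 2.90 and 6.76, so its gap lay at ZT20 and ZT22 and was not seen at ZT0. With the exon share as covariate the difference of Khk went from -1.29 to -0.41 ± 0.29. The exon median of lipogenesis without the ZT22 pair was -0.48. At the other 9 times the exon medians were -0.44 for lipogenesis and -0.46 for glycolysis and fructose genes. The intron medians there were -0.32 and -0.01.

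Exons were tested in 10405 genes, of which 1 rose (0.00961%) and 2 fell (0.0192%), and 1801 had an unadjusted limma p below 0.05, 805 higher and 996 lower. Those that fell were again Nono and Itgb1bp2. The gene that rose was Airn, the noncoding RNA that silences Igf2r in cis on the paternal chromosome, on chromosome 17 from 12741311 to 12815557. It falls outside the rule for named genes because 38.2% of its span lies inside Igf2r, and it was named after its values were seen. Its exons were at 0.375, 0.695 and 0.725 scaled FPKM in wild type and 0.935, 1.64 and 2.72 in Nono-/-, so all Nono-/- libraries lay above all of wild type. It rose by 1.34 ± 0.17 (limma adjusted p = 0.0213). Over the other 9 times the difference was 0.12 ± 0.10, and the gap between the windows, 1.22 ± 0.20, did not pass although its p was the smallest of all exons tested (limma adjusted p = 0.618). Igf2r, on the other strand, had exons at 1.44, 1.38 and 1.36 against 1.28, 1.44 and 1.32 scaled FPKM, and the headers name no strand option. Airn passed in no fit that left out 1 of the 3 pairs (adjusted p from 0.0881 to 0.116 in limma), nor with values as deposited (1.09, adjusted p = 0.250) or without the time block (adjusted p = 0.396).

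Airn belongs to the list of nuclear-retained RNAs, of which no other member passed the threshold in exons. Of 10 tested members 8 were higher and 0 lower at 3 of 3 times in exons, against 22.6% and 18.5% of all exons. The list had a median of 0.53, and 4 members were higher by at least 1.5-fold, against 2.68% of all exons. The median was 0.28 at the other 9 times, 0.45 without the ZT22 pair and 0.24 in values as deposited. Pvt1, a long noncoding RNA next to Myc, had exons at 1.0, 0.792 and 0.952 scaled FPKM in wild type and 1.54, 1.62 and 2.28 in Nono-/- (difference 0.90 ± 0.23, limma adjusted p = 0.230). Snhg11 was at 2.18, 1.32 and 1.78 against 2.97, 2.53 and 4.47, and Ftx, of the X-inactivation centre, at 2.4, 2.81 and 2.74 against 3.10, 4.67 and 3.85. In each of these 3 the groups of scaled values did not overlap. In values as deposited the differences were 0.64 ± 0.24 for Pvt1, 0.59 ± 0.22 for Snhg11 and 0.23 ± 0.15 for Ftx. Of the 10 members 6 stood above wild type without overlap and 0 below, against 10.8% and 9.82% of all exons. Neat1, the scaffold of paraspeckles, had 179, 94.2 and 169 scaled FPKM in wild type and 216, 213 and 326 in Nono-/-, a difference of 0.80 ± 0.37 (limma adjusted p = 0.289). The scaled Nono-/- values of Neat1 were above all of wild type, and the gap was widest at ZT22, when wild type was lowest. Its difference was 0.51 ± 0.34 in values as deposited and 0.39 ± 0.40 with the exon share as covariate.

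The protein partners of Nono had higher scaled nuclear values in every Nono-/- library than in any of wild type. Pspc1, the DBHS paralogue that pairs with Nono, had introns at 2.33, 2.02 and 2.63 scaled FPKM in wild type and 3.20, 3.83 and 3.34 in Nono-/- (difference 0.56 ± 0.14, limma adjusted p = 0.466). Its nuclear exons were at 4.91, 4.98 and 5.34 against 6.82, 7.02 and 8.15 (difference 0.52 ± 0.12, limma adjusted p = 0.216). In total RNA of the same livers Pspc1 rose by 0.96 ± 0.18 (limma adjusted p = 0.0265), from 2.94, 2.58 and 2.70 to 4.88, 4.85 and 6.69 scaled FPKM. The groups of scaled values did not overlap in any of these tables. Sfpq, the other paralogue, had introns at 20.6, 17.9 and 19.7 against 24.9, 26.1 and 23.6 scaled FPKM and exons at 19.1, 15.0 and 21.5 against 25.1, 29.4 and 25.6, again with no overlap. In total RNA the difference of Sfpq was -0.05 ± 0.11. In values as deposited the nuclear exon differences were 0.23 ± 0.15 for Pspc1 and 0.25 ± 0.12 for Sfpq, against 0.52 and 0.54 after scaling. With the exon share as covariate they were 0.47 ± 0.13 and 0.26 ± 0.16. Of the 17 paraspeckle genes tested in exons, Nono included, 8 were higher and 2 lower at 3 of 3 times. Among all exons the shares were 22.6% and 18.5%. The median of the 17 was 0.24, 0.10 without the ZT22 pair, and -0.04 in values as deposited.

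Genes of the respiratory chain had lower values in exons and not in introns. The 20 nuclear-encoded respiratory chain genes had a median of -0.20 in exons and of -0.00 in introns. In exons 11 were lower and 1 higher at 3 of 3 times, against 18.5% and 22.6% of all exons tested. The exon median was -0.30 without the ZT22 pair and -0.30 at the other 9 times. It was -0.49 in values as deposited, where that of all exons was -0.27. Cox4i1, of cytochrome oxidase, had exons at 15.2, 14.1 and 4.99 scaled FPKM in wild type and 4.95, 3.13 and 3.24 in Nono-/- (difference -1.45 ± 0.35, limma adjusted p = 0.216), a difference of -0.84 ± 0.28 with the exon share as covariate. Its introns were at 1.49, 1.44 and 0.961 against 1.25, 0.864 and 0.999. Here too wild type at ZT20 and ZT22 stood above its own ZT0 value. Uqcrc1 exons were at 6.96, 5.88 and 3.70 against 3.05, 2.29 and 2.55, and Acaa2, a thiolase of fat oxidation, at 37.8, 33.3 and 21.9 against 21.8, 15.8 and 16 scaled FPKM. Rps14, of the small ribosomal subunit, had exons at 4.51, 3.60 and 2.53 against 2.75, 1.42 and 0.933 scaled FPKM (difference -1.11 ± 0.18, limma adjusted p = 0.0883). In total RNA of the same livers the differences were -0.07 ± 0.25 for Cox4i1, -0.10 ± 0.19 for Uqcrc1 and 0.30 ± 0.30 for Rps14. None of the 3 was near the threshold there (limma adjusted p of 0.606 or more).

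**Figure D5:**
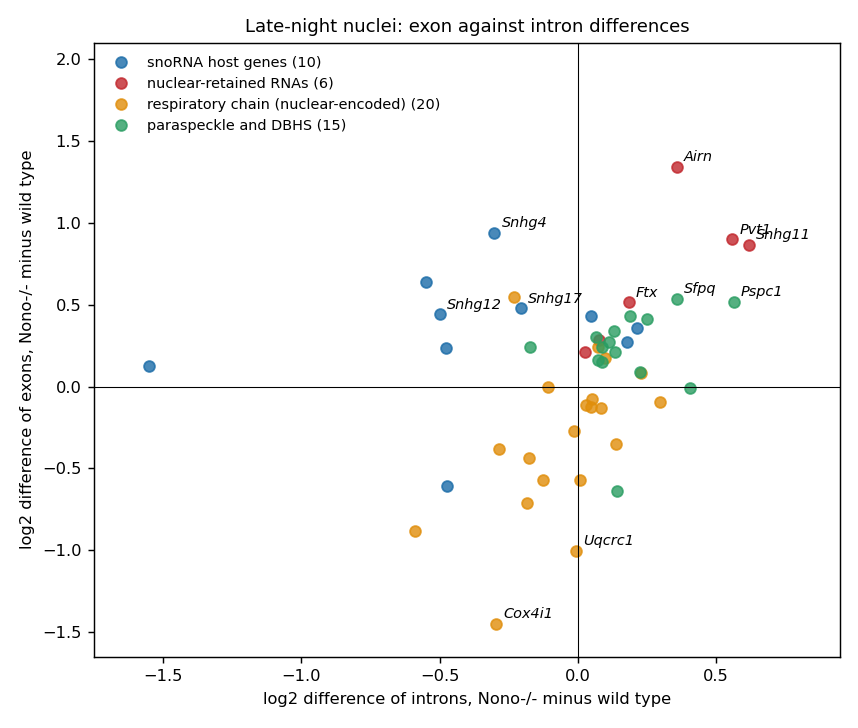
Log2 difference of exons (vertical axis) against that of introns (horizontal axis), Nono-/- minus wild type, for late-night members of 4 gene lists tested in both tables. Nono is left out of the paraspeckle list. Snhg12, Snhg17 and Snhg4 lie above 0 in exons and below 0 in introns, and Cox4i1 and Uqcrc1 lie lower in exons than in introns, Cox4i1 at -1.45 against -0.30.

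Drug-handling and signalling genes added single differences in exons. Gstp1, a glutathione transferase, had 12.4, 18.5 and 12.2 scaled FPKM in wild type and 6.72, 6.43 and 7.64 in Nono-/-, with no overlap (difference -1.02 ± 0.18, limma adjusted p = 0.124). Cyp2c37, a cytochrome P450, had 8.97, 4.13 and 8.81 against 15.8, 10.6 and 13.2 (difference 0.91 ± 0.21, limma adjusted p = 0.216). In total RNA Cyp2c37 rose by 0.83 ± 0.16 (limma adjusted p = 0.0265). Irs1, which carries the insulin signal, had nuclear exons at 3.34, 4.37 and 2.74 against 1.6, 2.6 and 2.15 scaled FPKM, and in total RNA it fell by 0.72 ± 0.13 (limma adjusted p = 0.0265). Gpt, alanine aminotransferase, had introns at 5.63, 6.94 and 1.71 against 1.16, 0.524 and 1.16 scaled FPKM. With the exon share as covariate its difference went from -2.13 to -0.77 ± 0.40. Nags, which makes the activator of the urea cycle, had introns at 2.85, 3.56 and 1.58 against 1.61, 0.785 and 0.995. Total RNA of these livers had 130 genes up (1.14%) and 283 down (2.48%) of 11396, far more than the nuclear tables.

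Kupffer cell markers, genes of the resident macrophages, had an exon median of 0.25 over 13 genes. At 3 of 3 times 5 were higher and 0 lower, against 22.6% and 18.5% of all exons tested. Vsig4, a complement receptor of these cells, had exons at 2.41, 3.02 and 3.07 scaled FPKM in wild type and 5.58, 4.62 and 5.92 in Nono-/-. The groups of scaled values did not overlap, and the difference of 0.90 ± 0.15 did not pass (limma adjusted p = 0.118). Adgre1 exons were at 3.17, 3.64 and 3.11 against 4.89, 4.41 and 5.18. In values as deposited the exon differences were 0.62 ± 0.20 for Vsig4 and 0.25 ± 0.27 for Adgre1, against 0.90 and 0.53 after scaling. In total RNA of the same livers Vsig4 rose by 0.78 ± 0.16 (limma adjusted p = 0.0303) and Adgre1 by 0.61 ± 0.15 (limma adjusted p = 0.0425). The whole list went another way at ZT22, with medians of 0.50, -0.38 and 0.71 by time. Without the ZT22 pair the median was 0.54, and in values as deposited it was -0.03, where that of all exons was -0.27. Its summed exon level was 35.2 to 48.8 scaled FPKM in wild type and 35.5 to 54.8 in Nono-/-. In bulk nuclei a different number of cells of a type and a different amount of RNA in each cannot be told apart.

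Exon signal was also set against intron signal of the same gene in the same library, in 9737 genes, where 1 rose (0.0103%) and 2 fell (0.0205%), and 1397 had an unadjusted limma p below 0.05. Airn rose, by 0.99 ± 0.14 (limma adjusted p = 0.0428), and like its exons it was named after its values were seen. Nono fell by 2.70 ± 0.21 (limma adjusted p = 0.000168). Ttr, which encodes the thyroid hormone carrier transthyretin, fell by 1.11 ± 0.16 (limma adjusted p = 0.0428). Its log2 ratio of exons to introns was 0.71, 0.55 and 0.93 in wild type and -0.30, -0.52 and -0.33 in Nono-/-, so each Nono-/- library had less exon than intron signal per length. The introns of Ttr were at 94.1, 129 and 31.7 scaled FPKM against 132, 134 and 103, and its exons at 153, 188 and 60.4 against 107, 93.6 and 81.4. The ratio of Ttr also fell over the other 9 times, by 0.81 ± 0.09 (limma adjusted p = 0.00184), and its level in total RNA was close (0.00 ± 0.17). Both Airn and Ttr lost the call when any 1 of the 3 pairs was left out. Among lists, 12 of 20 ER stress genes had a higher ratio at 3 of 3 times and 0 a lower one, against 19.1% and 16.8% of all genes. Groups did not overlap in 6 of these 20, upward, as in 9.64% of all genes upward and 8.51% downward. Their median ratio difference of 0.30 was 0.03 in values as deposited, where that of all genes was -0.25. The ratio of snoRNA host genes had a median of 0.70 over 10 genes, and 5 were higher at 3 of 3 times by at least 1.5-fold and 0 lower, against 1.74% and 3.65% of all genes. That median was 0.58 without the ZT22 pair and 0.43 in values as deposited.

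Whether late night differed from the rest of the day was tested as the gap between the late-night difference and the mean of the other 9 times. In introns 0 of 11997 genes passed in limma, with 719 at an unadjusted p below 0.05 and a smallest adjusted p of 0.779. In exons 0 of 10405 passed, with 342 at an unadjusted p below 0.05 and a smallest adjusted p of 0.618. The other 9 times alone gave 1197 genes up (9.98%) and 1338 down (11.2%) in introns, and 1210 up (11.6%) and 1423 down (13.7%) in exons, from 9 pairs. The 2 sides share no library. Of the 2535 intron genes called at the other times, 84.7% had the same sign late at night and 43.3% at 3 of 3 late-night times, and of the 2633 exon genes 94.8% and 57.5%. The late-night pairs were unequal in this. Exon genes called lower at the other times had median differences of -0.54 at ZT20, -0.83 at ZT22 and -0.08 at ZT0, and those called higher had 0.33, 0.50 and 0.13. In introns the genes called lower had -0.27, -0.34 and -0.06.

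A few lists shifted their median between the windows, with no member passing. ER stress genes had an intron median of -0.20 late at night and -0.46 at the other times, and within the night it went from -0.42 and -0.43 at ZT20 and ZT22 to 0.32 at ZT0. Without the ZT22 pair the late-night median was -0.06. Herpud1, of the endoplasmic reticulum's protein disposal, had introns at 20.7, 18.3 and 34.0 scaled FPKM in wild type against 10.7, 8.99 and 33.3 in Nono-/-, so the genotypes were close at ZT0. Heat and cold response genes had 0.13 late at night and -0.24 at the other times. By time the late-night medians were -0.17, 0.51 and 0.23, and without the ZT22 pair the median was 0.05. Hsp90aa1, a heat shock chaperone, had introns at 3.27, 3.37 and 7.57 against 3.56, 7.11 and 10.8 scaled FPKM, with its widest gap at ZT22.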

How the data were processed

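RNA was measured in liver nuclei (TruSeq Stranded Total RNA with Ribo-Zero Gold, per the labels). Per the submitters' processing notes, STAR 2.4.0k, FastQC 0.11.2 and the mm10 build were used. The deposited FPKM were made by the authors with HOMER, exons and introns apart, per the file headers, which name no strand option. Low values came out as whole reads within 0.1 read, which gave the depths. A value listed at 0 was bounded by 3 reads over its group, for counting error only.

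With R 4.3.3 and limma 3.58.1, libraries were scaled by median ratios. Values were taken as log2(FPKM + 0.05) for introns and log2(FPKM + 0.1) for exons, which understates changes of low genes. Genes with a mean of at least 0.1 (introns) or 0.5 (exons) FPKM over the 6 libraries were tested. All 24 nuclear libraries share 1 estimate of the spread, with time as a block of 12 levels, so the spread behind each p-value is that between pools of different times. Total RNA was fitted likewise. Each p-value from limma was adjusted by Benjamini-Hochberg at 0.05. The script was tested on simulated data. Identical values were found in 0 of 1128 library pairs. Alternatives were the pseudocount, filter, scaling, block, an exon-share covariate, the libraries fitted and each pair left out.

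Members and the 37 gene lists were chosen with earlier results of these data known. Named were Nono, called genes with at most 20% of their span in other genes and at least 300 bp of exons (up to 12 each way), and up to 4 list members with the smallest p, with all core clock, paraspeckle and immediate early genes allowed. Values of 1 core clock gene are not reported here.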

Additional observations from a re-analysis of the deposited data

How the results depend on the processing

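The counts of called genes are small, and most settings moved them. Main counts, higher and lower, were 1 and 2 each in introns, exons and exon minus intron. Introns gave 0 higher with the stricter filter (4 times), 2 higher with no replicate block, and 0 higher and 1 lower with only the 6 late-night libraries, with or without the replicate block. Exons gave 0 higher with the pseudocount 4 times larger, values as deposited or no replicate block, 0 and 0 with the stricter filter, and, with only the 6 libraries, 0 and 0 with the replicate block and 0 and 1 without it. Exon minus intron gave 0 higher with values as deposited or no filter, 0 and 1 with the larger pseudocount, the stricter filter, no replicate block or the exon share as covariate, and, with only the 6 libraries, 0 and 0 with the replicate block and 0 and 1 without it. Leaving out 1 pair in turn gave 1 to 2 higher and 2 to 3 lower in introns, 0 to 1 and 1 to 2 in exons, and 0 to 1 and 1 to 3 in the ratio. Leaving out the 4 libraries of ZT20 and ZT22, chosen after seeing the data, gave 1 lower in exons and 0 lower in the ratio. The test of late night against the other times gave 0 in every setting. The stricter filter no longer tests En2, Itgb1bp2 exons, Nono exons or Airn exons. Without the ZT0 pair Itgb1bp2 exons were not tested either. Otherwise the cause was not tested.

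Within late night the deviations of same-time libraries correlated at 0.34, -0.05 and 0.07 in introns and 0.30, -0.23 and -0.07 in exons. Those of different times correlated at -0.25 to 0.18 in introns and -0.28 to 0.34 in exons. The highest of these were for wild-type ZT0 with Nono-/- ZT22. The block thus rests on the shared time and not on these values.

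Of 90 gene values followed over all settings, 12 of 1151 comparisons changed sign, each of a value that had not passed. With the exon share as covariate these were Dusp1 (0.46), Fos (0.17) and Snhg17 introns (0.043) and Ttr exons (0.18). Without ZT20 and ZT22 they were Dusp1 (0.50) and Mlxipl (0.0073) introns and Khk (0.071) and Ttr (0.43) exons. With values as deposited it was Hpx exons (-0.15). With 1 pair left out in turn, introns of Dusp1 went from -0.28 to 0.23, exons of Hpx from -0.088 to 0.30, and introns of Fos were at 0.27 without the ZT22 pair.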
